A study of Mus musculus with 30 samples.

Results

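The genes described here are effectors and targets of the Hippo and Wnt pathways in mouse cardiac myocytes: Yap1, Wwtr1, Tead1, Lats2, Amotl2 and Ankrd1 on the Hippo side, and Axin2, Lef1, Tcf7 and Tcf7l2 on the Wnt side. They were taken by gene symbol, and the 10 symbols matched 11 gene IDs of the 52550 genes in the table, because Lats2 stands there under 2 IDs. Reads were high enough for a test in 9 of the 11. Lef1 had 56 reads in all 30 libraries together, and the second Lats2 ID had 0 in each. Total RNA was measured in 6 groups of 5 libraries. Mice carrying Myh6-Cre:DspW/F, called heterozygotes here, and wild types were each sampled young (age 3 months), older (age 6 months, regular activity) and exercised (age 6 months, of which the last 3 months included treadmill endurance training). Dsp encodes desmoplakin, the desmosomal plaque protein that anchors intermediate filaments, and the Myh6 promoter drives Cre recombinase in cardiac myocytes. The labels do not say whether wild-type mice carried Cre, so Cre and the floxed allele cannot be told apart, nor do they say whether the replicates were separate animals.

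In the Hippo pathway a kinase cascade that ends in LATS kinases phosphorylates YAP (Yap1) and TAZ (Wwtr1) and keeps them out of the nucleus. When free, YAP and TAZ bind TEAD factors and raise target genes such as Ankrd1, Ctgf and Cyr61, while AMOT proteins and LATS2 act as inhibitors that are themselves targets. In the canonical Wnt pathway a destruction complex built on Axin, APC and GSK3 degrades beta-catenin, and beta-catenin that escapes it binds TCF and LEF factors to raise targets such as Axin2. Both pathways have been studied in arrhythmogenic cardiomyopathy, because desmosomal proteins and plakoglobin touch both.

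RefSeq promoter sequences (build GRCm38.p6) were matched for 9 of the 10 symbols. Tead1 had none, so its promoter was not searched. The 16 windows of 300 bases lie mostly upstream of a gene's start and end just after it. They are shown because TEAD and TCF binding motifs are what the 2 sets of effectors share in DNA. The TEAD motif searched was GGAATG on either strand (CATTCC on the other), which 14.7% of 32851 RefSeq promoter windows hold, and 1.36% hold it at least 2 times. Ankrd1, the target with the highest level here, has 2 copies, 210 and 123 bases before its RefSeq start (chr19:36120037-36120066 and chr19:36119950-36119979, minus strand). Yap1 has 1 copy 141 bases before its start (chr9:8004720-8004749, minus strand), Wwtr1 has 1 copy 136 or 170 bases before 2 of its RefSeq starts (chr3:57576029-57576058, minus strand), and Amotl2 has 1 copy 65 bases before its start (chr9:102717727-102717756, plus strand). Lats2 has 1 copy just after a RefSeq start. Distances are from RefSeq starts, which can lie inside the gene spans of GENCODE M21 given further on. The outermost GENCODE start lies 255 bases upstream of the RefSeq start for Ankrd1, 1132 for Amotl2 and 12265 for Lats2. The stretch around the Lats2 copy overlaps a UTR exon of 3 of its 9 GENCODE transcripts. Both Ankrd1 copies fall in a UTR exon of 1 of its 6 GENCODE transcripts, and the Amotl2 copy in a UTR exon of 2 of its 14, while the Yap1 and Wwtr1 copies lie outside all GENCODE transcripts of those genes. In the sequences below, given 5′ to 3′ on the gene's strand, capitals mark the motif.
Ankrd1, far copy: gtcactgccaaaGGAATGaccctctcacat
Ankrd1, near copy: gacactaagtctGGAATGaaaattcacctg
Yap1: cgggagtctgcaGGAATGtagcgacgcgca
Wwtr1: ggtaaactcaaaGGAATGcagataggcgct
Amotl2: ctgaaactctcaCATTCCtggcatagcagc

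The TCF motifs searched were CTTTGAT and CTTTGAA on either strand, which do not overlap the TEAD motif and which 8.65% of the promoter windows hold. Of the 9 symbols searched, which leave out Tead1, only Wwtr1 (chr3:57576064-57576092, minus strand) and Amotl2 (chr9:102717696-102717724, plus strand) had a match, 1 each. Both also have the TEAD motif. The Amotl2 match falls in the same UTR exon. The windows of Axin2, Lef1, Tcf7 and Tcf7l2 held neither motif within these 300 bases. Below, capitals mark the TCF motif.
Wwtr1: aaccattttctCTTTGATcccgccccaag
Amotl2: tttgtggttcgCTTTGATcccgaggggga

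Levels are in CPM, counts scaled to a library's normalised total, and differences are log2 fold changes. Total counts ran from 11232143 to 23710331 per library. The 15 myocyte markers summed to between 86525 and 134450 CPM, and none was at 0 in any library. Dsp ranged from 752.3 to 1299 CPM in wild type and 573 to 1126 in heterozygotes at 3 months, from 635.8 to 1021 and 581.1 to 679.8 at 6 months, and from 928.1 to 1907 and 705.2 to 938.9 after exercise. It was lower in heterozygotes past the test only after exercise (-0.88, SE 0.193, edgeR adjusted p = 0.0287). The library labelled heterozygote 3 at 3 months had 1126 CPM of Dsp, inside the wild-type range, against 573 to 740.7 in the other heterozygotes of that age, and results that rest on it are given with and without it. Mitochondrial transcripts took a mean of 28.3% and 29.4% of counts in exercised wild type and heterozygotes, against 15.6% and 19.9% at 6 months with regular activity. The table gave a value for 3 of 23 spike-in controls in each 3-month library and for 0 in the exercised libraries. At 6 months with regular activity it gave 18 in each heterozygote and 11 to 18 in the wild types. Exercise and age therefore cannot be told apart from the set in which the libraries were handled. Not all wild types matched the heterozygotes at 6 months with regular activity, and the part of handling in that genotype comparison was not tested.

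Per kilobase (kb) of exon, the level of Ankrd1 was far above that of the other genes. Its median over the 30 libraries was 286 CPM per kb, followed by 14.5 for Wwtr1, 13.7 for Amotl2, 7.95 for Yap1, 5.84 for Tead1 and 1.73 for Lats2. The Wnt-side genes were lower: 0.592 for Axin2, 0.563 for Tcf7l2, 0.152 for Tcf7 and 0 for Lef1. Wwtr1 and Amotl2 overlapped across libraries (Wwtr1 from 12.4 upwards, Amotl2 up to 20.9), as did Axin2 and Tcf7l2 (0.297 to 1.31 and 0.418 to 1.01), so neither order is fixed. Yap1 was the steadiest, with a coefficient of variation within groups of 7.88% (median over the 6 groups), against 39.2% for Ankrd1.

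**Figure D1:**
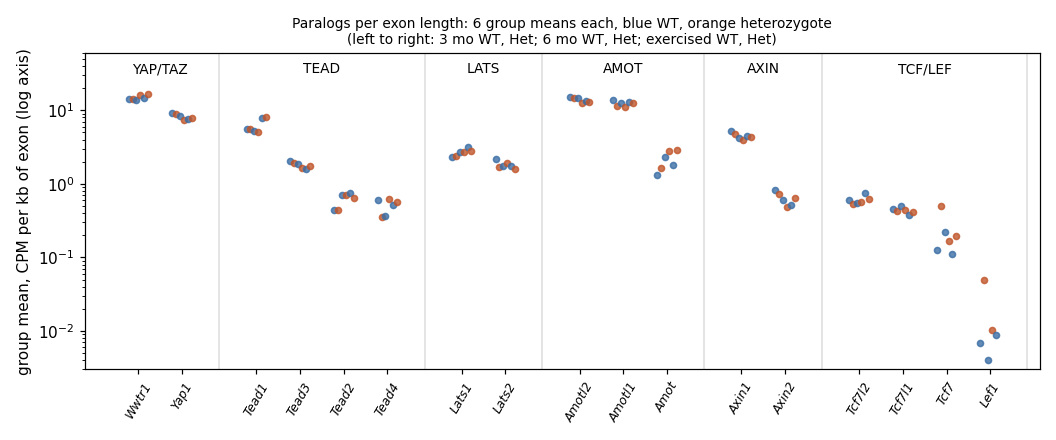
Group means of the genes and their paralogs, in CPM per kb of exon on a log axis, 1 point per group (blue wild type, orange heterozygote, left to right 3 months, 6 months, exercised). Tead1 stands above Tead3, Tead2 and Tead4 in each group, and Lef1 lies at the bottom with 1 group at 0, which a log axis cannot show.

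Within families, a different paralog led on each side. Tead1 averaged 6.25 CPM per kb over the 6 group means, Tead3 1.80, Tead2 0.614 and Tead4 0.505, so Tead1 was the main TEAD transcript. Axin1, which is not a Wnt target, averaged 4.50 against 0.635 for Axin2, its Wnt-induced paralog. Amotl1 (12.4) was near Amotl2 (13.9), with Amot at 2.12, and Lats1 averaged 2.69 against 1.82 for Lats2. Among TCF and LEF factors, Tcf7l2 (0.605) and Tcf7l1 (0.436) were above Tcf7 (0.220) and Lef1 (0.0132). Lats2 values carry a limit: its second ID, a same-strand gene model that GENCODE M21 names Gm49361, covers 42.4% of its exon bases. Of the exon bases of that model, 89.9% lie in Lats2 and 10.1% in Xpo4, yet it had 0 reads in each library. The sources used here do not say how reads over both genes were counted. If they were left out, the level of Lats2 per kb is understated, so its order with Lats1 is not fixed. Opposite-strand genes cover 1.25% of the exon bases of Yap1, 3.8% of Axin2 and 13.7% of Lef1.

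Genotype differences passed the test for none of these genes. The test was edgeR's quasi-likelihood test with Benjamini-Hochberg adjustment over 15587 genes, and called here means that the adjusted p was under 0.05. At 3 months 0 of the 9 tested genes were called, where 0.192% of all tested genes were. At 6 months with regular activity 0 were called (0.135% of all), and after exercise 0 (0.404% of all). An unadjusted edgeR p under 0.05 was reached by 2, 1 and 0 of the 9 in that order, and DESeq2's Wald test called 0 in each. The median log2 fold change of the 9 was -0.02, -0.05 and 0.05, beside 0.00, 0.00 and -0.01 for all tested genes.

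Between exercised and regular-activity libraries, whose sets of handling cannot be told apart from exercise, 1 of these genes was called: Tead1, higher in both genotypes. That is 1 of 9 in each genotype, where 9.69% of all tested genes were called in wild type (4.64% higher) and 8.82% in heterozygotes (5.34% higher), so the share called is near the background. From 3 to 6 months 0 of 9 were called in wild type (0.86% of all) and 0 of 9 in heterozygotes (3.43% of all). Unadjusted edgeR p-values under 0.05 numbered 3 and 1 for exercise and 0 and 3 for age. DESeq2 called 0 for age in both genotypes.

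**Figure D2:**
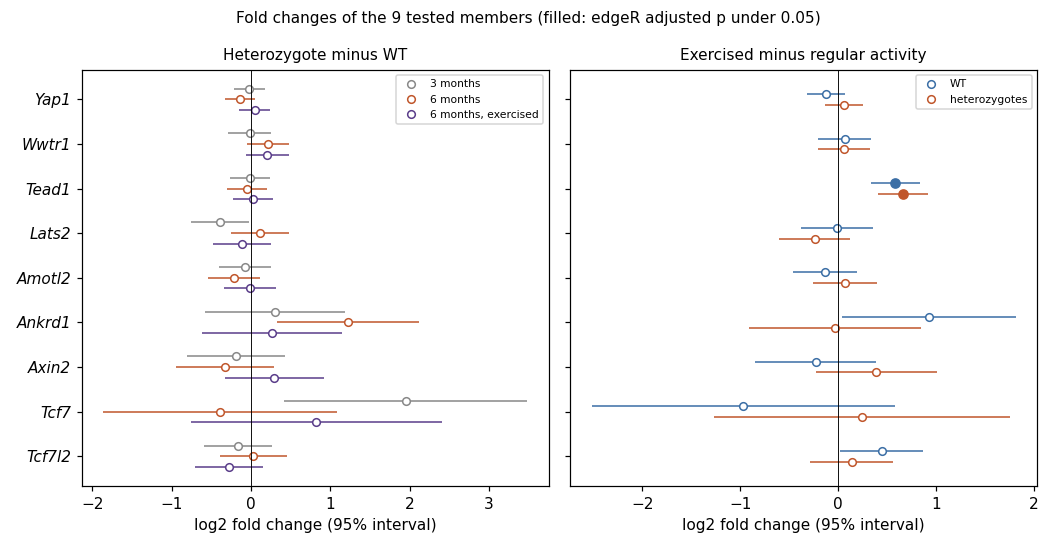
Log2 fold changes of the 9 tested genes with 95% intervals, by genotype (left, 3 comparisons) and by exercise (right, both genotypes). Filled points mark an edgeR adjusted p under 0.05, which only Tead1 reached, at 0.58 in wild type and 0.66 in heterozygotes.

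Tead1 (ENSMUSG00000055320, chr7:112679318-112906807, plus strand; positions are those of GRCm38), the DNA-binding partner of YAP and TAZ, was higher after exercise in both genotypes. In wild type at 6 months the 5 libraries had 64.4, 80.2, 77.0, 69.8 and 64.9 CPM, and after exercise 120.0, 138.3, 101.1, 89.9 and 84.9. In heterozygotes they had 78.2, 63.5, 63.4, 69.9 and 69.4 CPM with regular activity, and 105.2, 110.5, 101.4, 118.3 and 108.6 after exercise. All 5 exercised libraries lay above all 5 regular-activity libraries in each genotype, and the exercised wild-type libraries spread more widely (106.8 ± 22.2 CPM, SD, n = 5) than the exercised heterozygotes (108.8 ± 6.35).

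Tead1 rose in wild type by 0.58 on the log2 scale (SE 0.122, edgeR adjusted p = 0.002), and 9 of 10 libraries lay nearer to their own group's mean. In heterozygotes it rose by 0.66 (SE 0.123, edgeR adjusted p = 0.000658), with 10 of 10 libraries nearer to their own mean. Groups that do not overlap occurred in 10.6% and 9.12% of all tested genes in these comparisons. Tead1 remained called without each library in turn, with a highest edgeR adjusted p of 0.011 in wild type and 0.00357 in heterozygotes. With mitochondrial and the 10 most abundant other genes removed before scaling it was 0.60 and 0.65. The difference between genotypes in the exercise response was 0.08 (95% interval -0.28 to 0.43, edgeR adjusted p = 0.999). With exercise 4.64% of all tested genes were called higher in wild type and 5.34% in heterozygotes. Of the 15 myocyte markers, 4 were also called higher in each genotype and 0 lower, and 0 of 13 fibroblast markers were called. The part of these markers and of the mitochondrial share in the Tead1 values was not tested. In bulk RNA, fewer cells of a type and less RNA per cell cannot be told apart.

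Tead1 showed no such difference by age or genotype. It averaged 76.7 ± 8.73 and 76.2 ± 13.5 CPM in wild type and heterozygotes at 3 months, and 71.2 ± 7.12 and 68.9 ± 6.06 at 6 months. Its log2 fold change between genotypes was -0.01 at 3 months, -0.05 at 6 months and 0.03 after exercise, each with a 95% interval inside -0.31 to 0.28. The other TEAD genes did not pass the test for exercise: Tead3 differed by -0.22 in wild type and 0.12 in heterozygotes (edgeR adjusted p = 0.59 and 0.799), Tead2 by 0.11 and -0.13 (0.928 and 0.906), and Tead4 by 0.47 and -0.10 (0.564 and 0.927).

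**Figure D3:**
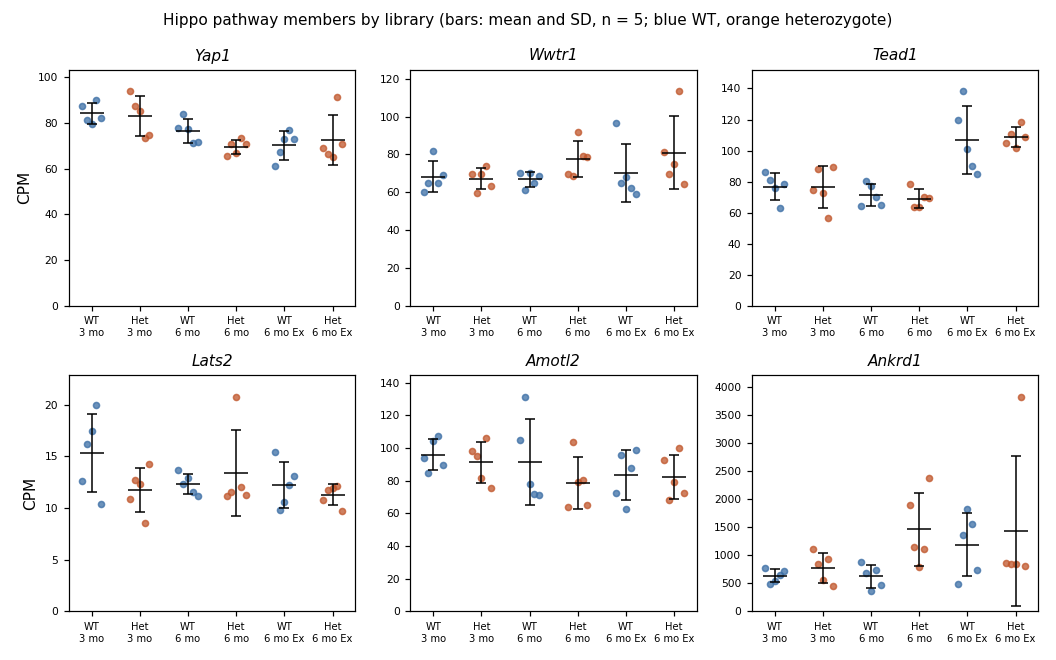
CPM of the 6 Hippo-side genes in each of the 30 libraries (points), with the mean and SD of each group of 5 (bars). Exercised libraries of Tead1 lie at 84.9 CPM and above, and 1 exercised heterozygote reaches 3823 CPM of Ankrd1.

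Yap1 (ENSMUSG00000053110, chr9:7931999-8004596, minus strand), the transcriptional coactivator held back by the Hippo kinases, ranged only from 61.0 to 93.96 CPM over all libraries. From high to low, group means were 84.2 ± 4.42 and 82.99 ± 8.66 CPM (wild type and heterozygote at 3 months), 76.4 ± 5.25 (wild type at 6 months), 72.5 ± 10.8 (exercised heterozygotes), 70.3 ± 6.24 (exercised wild type) and 69.5 ± 3.17 (heterozygotes at 6 months). Neighbours in that order overlapped in range. In heterozygotes the 3-month libraries had 93.96, 87.3, 85.3, 73.6 and 74.7 CPM and the 6-month libraries 65.7, 70.8, 66.9, 73.5 and 70.7. The lowest 3-month and highest 6-month values were 73.6 and 73.5, so the groups did not overlap, as in 7.24% of all tested genes. The fold change was -0.26 (SE 0.0935, edgeR adjusted p = 0.114), which did not pass the test, and was -0.16 without heterozygotes 1 and 2 at 3 months, the libraries with the largest small-RNA share of that group. In wild type the age difference was -0.14 (SE 0.0934, edgeR adjusted p = 0.581). The age effect differed between genotypes by -0.12 (95% interval -0.39 to 0.16). With age in heterozygotes 3.43% of all tested genes were called in either direction. In that comparison 3 of 15 myocyte markers were called lower and 6 of 13 fibroblast markers higher. The part of these in the Yap1 values was not tested.

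Wwtr1 (ENSMUSG00000027803, chr3:57455649-57575910, minus strand), which encodes TAZ, averaged 68.1 ± 8.21 and 67.2 ± 5.73 CPM at 3 months. It averaged 66.9 ± 3.96 and 77.6 ± 9.45 at 6 months, and 70.2 ± 15.2 and 80.8 ± 19.3 after exercise, in wild type and heterozygotes. The higher mean of the older heterozygotes did not pass the test, with 0.21 (SE 0.131, edgeR adjusted p = 0.685, 8 of 10 libraries) at 6 months and 0.20 (SE 0.131, edgeR adjusted p = 0.674, 6 of 10) after exercise. The highest values came from exercised heterozygote 4 (113.5 CPM), exercised wild type 1 (96.7) and heterozygote 3 at 6 months (92.0). These libraries also had the highest fibroblast, macrophage and endothelial markers of their own groups. The sums were 1272, 696 and 945.3 CPM over 13 fibroblast markers and 138, 66.0 and 113 CPM over 12 macrophage markers. Over 13 endothelial markers they were 773, 1942 and 1249 CPM. The part of other cell types in the Wwtr1 values was not tested. Without exercised wild type 1 and heterozygote 4 the genotype difference after exercise was 0.19.

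Lats2 (ENSMUSG00000021959, chr14:57689662-57758388, minus strand), the kinase that phosphorylates YAP and TAZ, had group means from 11.3 to 15.3 CPM, with the limit on its reads given above. At 3 months wild type had 12.6, 16.2, 17.4, 19.9 and 10.4 CPM and heterozygotes 10.9, 12.7, 12.3, 8.53 and 14.3. The groups overlapped, and the fold change of -0.39 (SE 0.177, edgeR adjusted p = 0.415, 7 of 10 libraries) did not pass the test. The value was -0.40 without the library labelled heterozygote 3. At 6 months and after exercise Lats2 differed by 0.11 and -0.12 between genotypes (edgeR adjusted p = 0.921 and 0.918), and heterozygote 3 at 6 months, with 20.7 CPM, was the highest of all libraries.

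Amotl2 (ENSMUSG00000032531, chr9:102716672-102733418, plus strand), a junction-associated inhibitor of YAP, ranged from 62.9 to 131.3 CPM. Group means lay between 78.5 ± 16.1 CPM (heterozygotes at 6 months) and 96.0 ± 9.65 (wild type at 3 months), and all 6 were within 1 SD of a neighbour. Differences between genotypes were -0.07, -0.22 and -0.02 at 3 months, 6 months and after exercise, with a lowest edgeR adjusted p of 0.751. The exercise differences were -0.13 in wild type and 0.07 in heterozygotes (edgeR adjusted p = 0.716 and 0.857). Their 95% intervals, -0.46 to 0.20 and -0.26 to 0.40, leave room for small changes of either sign.

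Ankrd1 (ENSMUSG00000024803, chr19:36111961-36120099, minus strand) encodes a stretch-responsive ankyrin repeat protein of the sarcomere and nucleus and is a widely used YAP target. On the Hippo side it varied most within groups, and its largest genotype difference was at 6 months with regular activity, where it did not pass the test. Wild type at 6 months had 874, 686, 368, 747 and 464 CPM and heterozygotes 1902, 1151, 800.5, 1110 and 2376. Only the lowest heterozygote fell below the highest wild type, so 9 of 10 libraries lay on their own side. The log2 fold change was 1.23 (SE 0.433, 95% interval 0.33 to 2.12, edgeR adjusted p = 0.377). Over the alternatives its edgeR adjusted p ran from 0.122 to 0.655 and the value from 1.23 to 1.29, and without each library in turn the value ran from 1.01 to 1.38.

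At the other stages the groups overlapped more widely. At 3 months wild type had 767, 489, 544, 646 and 715 CPM and heterozygotes 1109, 841, 561.8, 932 and 459, a difference of 0.30 (SE 0.428, edgeR adjusted p = 0.836). After exercise wild type had 488, 1366, 1819, 1553 and 733 CPM and heterozygotes 864, 845, 841, 3823 and 810. Here 4 heterozygotes lay within 54 CPM of one another, between the lower and the higher wild types, and 1 lay far above. The difference of 0.27 (SE 0.427, edgeR adjusted p = 0.92) turned to -0.50 without exercised heterozygote 4 and to -0.70 (edgeR adjusted p = 0.60) without that library and exercised wild type 1.

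In wild type Ankrd1 averaged 628 ± 208 CPM with regular activity and 1192 ± 561 after exercise, a difference of 0.93 (SE 0.431, edgeR adjusted p = 0.195, 8 of 10 libraries) that did not pass the test. Without exercised wild type 1 and heterozygote 4 it was 1.13 and passed (edgeR adjusted p = 0.022); it passed in none of the 10 fits without 1 library. In heterozygotes the means were 1468 ± 649 CPM with regular activity and 1437 ± 1334 after exercise, a difference of -0.03 (edgeR adjusted p = 0.981), or -0.80 (edgeR adjusted p = 0.166) without exercised heterozygote 4. The difference between genotypes in the exercise effect was -0.96 (SE 0.605, 95% interval -2.21 to 0.29, edgeR adjusted p = 0.999). It was -1.95 (edgeR adjusted p = 0.354) without the 2 libraries named, and was not called in either fit. From 3 to 6 months Ankrd1 differed by -0.01 in wild type and 0.91 in heterozygotes (SE 0.430, edgeR adjusted p = 0.241), and the interaction with age was 0.92 (SE 0.605, edgeR adjusted p = 0.727).

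At 6 months with regular activity, markers of some other cells were also higher on average in heterozygotes. Of 7 epicardial markers, however, 2 were higher and 5 lower, with 0 called. Fibroblast markers summed to 392 to 477 CPM in wild type and 579 to 945.3 in heterozygotes, with 13 of 13 higher on average and 0 called. Macrophage markers summed to 19.8 to 37.4 and 55.6 to 113 CPM, and endothelial markers to 537 to 786 and 586 to 1249. Within heterozygotes, however, the library with the highest fibroblast and macrophage sums, heterozygote 3, had the lowest Ankrd1 (800.5 CPM). In exercised heterozygote 4 high Ankrd1 stood with high fibroblast (1272 CPM) and macrophage (138 CPM) sums. From 3 to 6 months in heterozygotes 6 of 13 fibroblast, 4 of 13 endothelial and 4 of 11 tested macrophage markers were called higher. In that comparison 3 of 15 myocyte markers were called lower, and 3.43% of all tested genes were called in either direction. The part of other cell types in the Ankrd1 values was not tested.

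Among other genes used as YAP targets, Tgfb2 and Ctgf were higher on average in heterozygotes, as Ankrd1 was, and Cyr61 was lower, and none of these differences passed the test. Tgfb2, a TGF-beta ligand, had 8.10, 4.62, 5.10, 5.55 and 6.15 CPM in wild type at 6 months and 17.2, 11.03, 9.09, 11.5 and 11.7 in heterozygotes. All 5 heterozygotes lay above all 5 wild types, as in 4.02% of all tested genes either way round, with a fold change of 1.04 (SE 0.374, edgeR adjusted p = 0.388, and 0.0121 in the fit to these groups alone). After exercise it was 1.54 (SE 0.376, edgeR adjusted p = 0.0706), with an adjusted p of 0.0229 to 0.0344 without exercised heterozygote 1, 3 or 5 and 0.00327 by DESeq2. Exercised heterozygote 4 again stood apart with 70.9 CPM of Tgfb2 against 9.72 to 18.9 in the other exercised heterozygotes, and without it the Tgfb2 difference was 0.61 (edgeR adjusted p = 0.434). Cyr61, a secreted matricellular protein and a classic YAP target, was lower on average: at 6 months it averaged 517 CPM in wild type but 346 in heterozygotes (-0.58, SE 0.227, edgeR adjusted p = 0.435) and 293 and 170.1 after exercise (-0.78, SE 0.228, edgeR adjusted p = 0.142). The latter passed by DESeq2 (adjusted p = 0.0302) and without exercised wild type 1 (-0.97, edgeR adjusted p = 0.0128). Ctgf, its close relative, differed by 0.15 at 6 months (edgeR adjusted p = 0.968) and 1.16 after exercise (edgeR adjusted p = 0.365), where exercised heterozygote 4 had 190.9 CPM and the other 4 had 37.1 to 55.0. Without that library the Ctgf difference was 0.41 (edgeR adjusted p = 0.921), and at 6 months it ran from -0.025 without wild type 4 to 0.73 without wild type 2.

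Of the 21 tested genes in a list of 22 YAP and TEAD targets, 0 were called in any genotype comparison in the fit to all libraries. In that list 9 were higher on average in heterozygotes at 3 months, 15 at 6 months and 13 after exercise, and the list's median log2 fold changes were -0.04, 0.20 and 0.06. With exercise 1 was called in each genotype, Cyr61, which fell, beside 9.69% and 8.82% of all tested genes called. Cyr61 had 540, 696, 499.8, 424 and 426 CPM in wild type at 6 months and 135, 396, 280.2, 310.2 and 342 after exercise. The groups did not overlap, as in 10.6% of all tested genes. The fold change was -0.82 (SE 0.228, edgeR adjusted p = 0.020), or -0.69 (edgeR adjusted p = 0.0689) without wild type 2 at 6 months. This call was also lost with no low-count filter (edgeR adjusted p = 0.0625) and in the fit to the groups compared alone (0.0626). In heterozygotes Cyr61 spanned 227 to 458 CPM with regular activity and 115 to 194 after exercise, and 9.12% of all tested genes did not overlap there. The fold change was -1.03 (SE 0.229, edgeR adjusted p = 0.00467), called without each library in turn and under each alternative. So Tead1 was higher and Cyr61 lower in the exercised libraries of both genotypes, the latter less securely in wild type. Ankrd1 passed the test in neither direction, and exercise cannot be told apart from the set of handling.

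Axin2 (ENSMUSG00000000142, chr11:108920349-108950783, plus strand), a scaffold of the destruction complex and a feedback target of beta-catenin, was detected at 1.63 to 7.19 CPM, from 29 to 114 reads per library. At 3 months wild type spread from 1.72 to 7.19 CPM (4.57 ± 2.15) and heterozygotes from 3.00 to 5.42 (3.98 ± 0.959). At 6 months the means were 3.37 ± 0.845 and 2.69 ± 0.754, and after exercise 2.86 ± 0.942 and 3.52 ± 0.693. Genotype differences were -0.19, -0.33 and 0.30 (SE 0.298, 0.299 and 0.303, lowest edgeR adjusted p = 0.826). The largest difference was with age, -0.44 in wild type and -0.57 in heterozygotes (SE 0.297 and 0.300, edgeR adjusted p = 0.592 and 0.294), which did not pass the test.

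**Figure D4:**
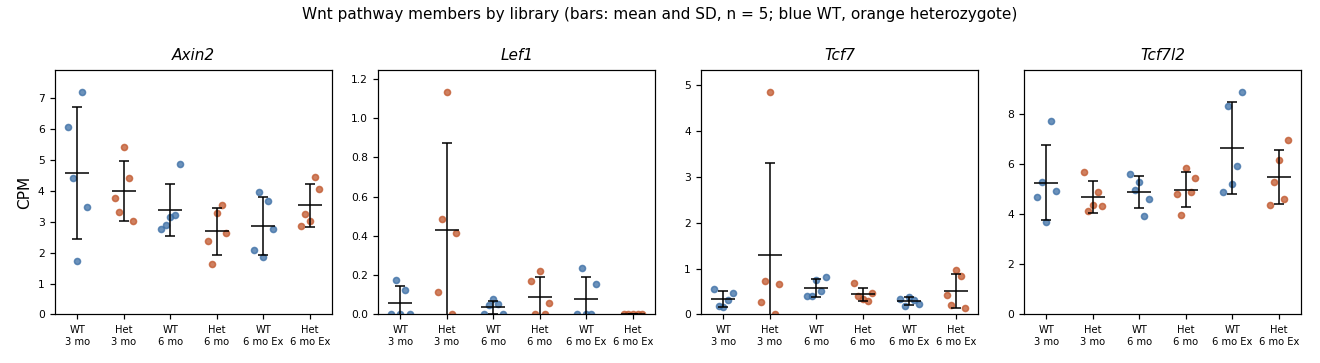
CPM of the 4 Wnt-side genes in each of the 30 libraries (points), with the mean and SD of each group of 5 (bars, cut at 0). The library labelled heterozygote 3 at 3 months is the highest for Lef1 (1.13 CPM) and for Tcf7 (4.85 CPM), and Lef1 is at 0 in all exercised heterozygotes.

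Tcf7l2 (ENSMUSG00000024985, chr19:55741820-55933654, plus strand), the leading TCF transcript, ranged from 3.67 to 8.86 CPM. Exercised wild type had 4.86, 8.29, 5.21, 5.91 and 8.86 CPM and wild type at 6 months 5.58, 4.97, 5.26, 3.92 and 4.60. Libraries 2 and 5 of the exercised group were above all others, and the rest overlapped. The fold change was 0.44 (SE 0.205, edgeR adjusted p = 0.185, 8 of 10 libraries) and did not pass the test. In heterozygotes it was 0.14 (SE 0.206, edgeR adjusted p = 0.772). The genotypes differed in this by -0.31 (95% interval -0.91 to 0.29). The genotype differences were -0.16, 0.03 and -0.28 (lowest edgeR adjusted p = 0.746).

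Tcf7 (ENSMUSG00000000782, chr11:52252371-52283014, minus strand) encodes TCF-1, best known from T lymphocytes, and Lef1 (ENSMUSG00000027985, chr3:131110471-131224356, plus strand) its close relative. Both were near the detection limit, and 1 read was worth 0.038 to 0.0837 CPM, depending on the library. At 3 months Tcf7 had 0.556, 0.176, 0.172, 0.315 and 0.459 CPM in wild type and 0.269, 0.729, 4.85, 0 and 0.667 in heterozygotes. The value of 4.85 CPM, from 77 reads in the library labelled heterozygote 3, was the only one above 0.979 CPM in the 30 libraries. The fold change of 1.95 (SE 0.743, edgeR adjusted p = 0.298) became 0.28 (edgeR adjusted p = 0.908) without it. The age difference in heterozygotes likewise went from -1.56 (edgeR adjusted p = 0.217) to 0.12 (edgeR adjusted p = 0.956).

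Lef1 followed the same library. It had 18 reads there (1.13 CPM), 0 to 6 in the other 3-month heterozygotes, and 0 to 3 in the 3-month wild types. At 6 months the libraries had 0 to 2 reads in wild type and 0 to 4 in heterozygotes, and after exercise 0 to 4 in wild type and 0 in each of the 5 heterozygotes. Lef1 was not tested, and with so few reads no difference between groups was detectable at this depth.

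**Figure D5:**
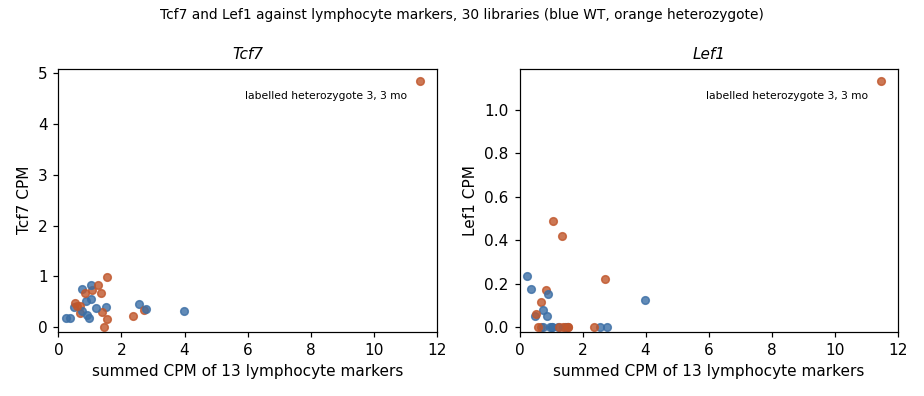
Tcf7 (left) and Lef1 (right) in CPM against the summed CPM of 13 T and B lymphocyte markers, 1 point per library (blue wild type, orange heterozygote). The library labelled heterozygote 3 at 3 months stands apart on both axes, at 11.5 CPM of markers, and the other 29 libraries lie at 3.97 or below.

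The same library had the highest lymphocyte markers. The 13 markers summed to 11.5 CPM there and to 0.237 to 3.97 in the other 29 libraries. Cd4 had 61 reads, Cd8b1 43, Cd8a 31 and Cd3e 13, all T cell genes, and the B cell genes Cd79a and Ms4a1 were at 0. The part of these cells in the Tcf7 and Lef1 values was not tested. In the remaining 29 libraries Tcf7 lay between 0 and 0.979 CPM. Exercised wild type (0.178 to 0.381 CPM) fell below every wild type at 6 months (0.398 to 0.824), and 10.6% of all tested genes did not overlap there. The fold change of -0.97 (SE 0.749, edgeR adjusted p = 0.497) did not pass the test at 3 to 19 reads per library.

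No interaction of genotype was called for any of these genes. With exercise 0 of 9 were called, where 0.0128% of all tested genes were, and with age 0 of 9, where 0% were. Unadjusted edgeR p-values under 0.05 numbered 0 and 1, the latter Tcf7 with age, and DESeq2 called 0 in both. The largest interactions in size were those of Ankrd1 with exercise, given above, of Tcf7 with age (-2.34, or -0.67 without the library labelled heterozygote 3) and of Tcf7 with exercise (1.21, SE 1.046, edgeR adjusted p = 0.999).

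The rest of both pathways was read from 8 gene lists, of which 121 different genes were tested. Of them 0, 0 and 1 were called for genotype at 3 months, at 6 months and after exercise (0, 0 to 3 and 0 to 5 over the alternatives, where the 3 came from the fit to the groups compared alone), 12 for exercise in wild type (8 higher, 4 lower) and 15 in heterozygotes (11 higher, 4 lower). Of all tested genes 9.69% and 8.82% were called for exercise, and 0.192%, 0.135% and 0.404% for genotype in the order above. Over the alternatives the exercise counts ran from 7 to 14 and from 10 to 19. The 1 gene called for genotype was Wisp1, a secreted matricellular protein and Wnt target. It had 2.01, 2.07, 1.46, 2.34 and 3.97 CPM in exercised wild type and 3.52, 11.8, 5.80, 9.11 and 8.42 in exercised heterozygotes, overlapping in 1 library on each side. The fold change was 1.71 (SE 0.355, edgeR adjusted p = 0.0166, 9 of 10 libraries). The call was lost without exercised wild type 2, 3 or 4 (edgeR adjusted p = 0.0652, 0.0702 and 0.063) or exercised heterozygote 2 or 4 (0.0643 and 0.0568), in the fit to these groups alone (0.0896), and without exercised wild type 1 and heterozygote 4 together (0.0782). At 6 months with regular activity Wisp1 ranged from 3.08 to 6.64 CPM in wild type and 2.22 to 8.64 in heterozygotes.

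Among 24 tested genes of the Hippo kinase cassette and its regulators, 3 rose with exercise in wild type and 4 in heterozygotes, and 0 fell. Of all tested genes 4.64% and 5.34% were called higher in these comparisons, and no list was tested as a set. Mob1b, the LATS and NDR kinase activator, averaged 16.7 and 31.2 CPM before and after exercise in wild type (0.90, SE 0.194, edgeR adjusted p = 0.00261) and 19.0 and 39.98 in heterozygotes (1.08, SE 0.194, edgeR adjusted p = 0.000505). Taok1, an upstream kinase, rose by 0.36 in both (edgeR adjusted p = 0.00956 and 0.0112), but the calls were lost with no low-count filter (0.0716 and 0.105) and, in heterozygotes, without exercised heterozygote 2 (0.0542). Tjp1, a junction scaffold, was called in wild type (0.42, edgeR adjusted p = 0.0216) but not without wild type 4, wild type 5 or exercised wild type 1 (0.061, 0.076 and 0.111). Stk4, the MST1 kinase, was called in heterozygotes (0.37, edgeR adjusted p = 0.0109) but not without exercised heterozygote 1 (0.0588). Map4k4, a kinase that acts on LATS, was called in heterozygotes (0.32, edgeR adjusted p = 0.0327), and the call survived the loss of 1 library only for heterozygote 3 at 6 months, with 0.0526 to 0.101 in the other 9 fits. Of the 9 YAP, TEAD and VGLL genes, Tead1 rose in both genotypes and Vgll4, a TEAD corepressor, fell in heterozygotes (-0.50, edgeR adjusted p = 0.0137, and 0.0576 without heterozygote 3 at 6 months). In genotype comparisons 0 of these 33 genes were called. The smallest p of them was that of Map4k4 at 3 months (-0.33, SE 0.0975, edgeR adjusted p = 0.178).

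Among 16 tested genes of the beta-catenin destruction complex, 3 rose and 1 fell with exercise in wild type, and 3 rose in heterozygotes. Over all tested genes, 9.69% and 8.82% were called in either direction. Gsk3b, the kinase that marks beta-catenin for degradation, averaged 67.3 and 98.6 CPM in wild type (0.55, SE 0.0991, edgeR adjusted p = 0.000401) and 60.7 and 94.6 in heterozygotes (0.64, SE 0.0993, edgeR adjusted p = 7.31e-05). Apc, a scaffold of that complex, rose by 0.56 and 0.47 (edgeR adjusted p = 0.000981 and 0.00511). The exercised groups of both genes did not overlap those with regular activity in either genotype, as in 10.6% and 9.12% of all tested genes. Dvl1, which relays the Wnt signal, fell in wild type (-0.50, edgeR adjusted p = 0.00273). Tnks, which marks Axin for degradation, rose in heterozygotes (0.61, edgeR adjusted p = 0.00205). Its value in wild type, 0.40 (edgeR adjusted p = 0.0399), was called in only 3 of the 10 fits without 1 library: it was lost without wild type 1, 3, 4 or 5 (0.063, 0.055, 0.0923 and 0.112) or exercised wild type 2, 3 or 4 (0.0513, 0.0702 and 0.0706).

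Of 13 tested TCF, LEF and beta-catenin cofactor genes, Ctnnb1, which encodes beta-catenin, fell with exercise in wild type from 365 to 278 CPM (-0.39, SE 0.0808, edgeR adjusted p = 0.00172). In heterozygotes it fell from 354 to 292 CPM (-0.28, edgeR adjusted p = 0.0267), a call lost without heterozygote 2 or 3 at 6 months (0.0794 and 0.0684). Pygo1, a beta-catenin coactivator, rose in heterozygotes (0.54, edgeR adjusted p = 0.00232), and Bcl9, its partner, was called there too (0.54, edgeR adjusted p = 0.0305) but kept the call in only 3 of 10 fits, and was lost without heterozygotes 2, 3 or 5 (0.0522, 0.0614 and 0.132) or exercised heterozygotes 1, 2, 3 or 5 (0.0931, 0.0751, 0.0592 and 0.13). Bcl9 also had 11.7 and 17.8 CPM in exercised wild type and heterozygotes, a genotype difference of 0.60 with 10 of 10 libraries on their side that did not pass the test (edgeR adjusted p = 0.10, and 0.0371 by DESeq2). The exercise calls of Mob1b, Gsk3b and Apc in both genotypes, of Ctnnb1, Dvl1 and Fzd8 in wild type, and of Pygo1, Tnks, Lrp5 and Lrp6 in heterozygotes were kept under each alternative and without each library. With no low-count filter, which tests more genes, the other exercise calls were lost except those of Tead1 and, in heterozygotes, of Vgll4 and Cyr61. Exercise effects that were called in 1 genotype only were not shown to differ between genotypes, since 0 interactions were called among the 121 genes.

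Of 22 tested Wnt ligands and receptors, 1 rose and 1 fell with exercise in each genotype. The shares called of all tested genes were 9.69% and 8.82%. The coreceptor Lrp6 rose by 0.41 in heterozygotes (SE 0.0793, edgeR adjusted p = 0.00101) and by 0.24 in wild type (edgeR adjusted p = 0.0472). The wild-type call was lost without wild type 1, 3, 4 or 5 (0.0571, 0.0679, 0.103 and 0.138) or exercised wild type 1, 2, 4 or 5 (0.0764, 0.0538, 0.101 and 0.0974). The receptor Fzd8 fell in wild type (-0.77, SE 0.189, edgeR adjusted p = 0.00752), and the coreceptor Lrp5 fell in heterozygotes (-0.43, SE 0.104, edgeR adjusted p = 0.00692). Of 14 tested Wnt targets 0 were called with exercise, and of 7 tested secreted inhibitors 0 were called in any comparison. The inhibitor with the largest genotype difference was Sfrp2, at 0.123 and 0.704 CPM at 6 months (2.44, SE 1.131, edgeR adjusted p = 0.547) and 0.0505 and 0.429 after exercise (2.97, SE 1.332, edgeR adjusted p = 0.444, or 1.21 without exercised heterozygote 4). From 3 to 6 months 1 of the 121 genes was called in each genotype, where 0.86% and 3.43% of all tested genes were. Map4k4 fell in wild type (-0.40, edgeR adjusted p = 0.0385) and Fat4, a protocadherin upstream of Hippo, rose in heterozygotes (1.08, edgeR adjusted p = 0.0449). Also called higher with age in heterozygotes were 6 of 13 fibroblast, 4 of 13 endothelial and 4 of 11 tested macrophage markers. Of 15 myocyte markers 3 were called lower. The part of other cell types in the Fat4 value was not tested. In fits without 1 library Map4k4 kept its call only without wild type 2 or 3 at 3 months or 3 at 6 months (0.0613 to 0.156 in the other 7), and Fat4 only without heterozygote 2 at 6 months (0.0538 to 0.164 in the other 9).

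Likeness of pattern was measured as Pearson's r of log2 CPM over the 30 libraries, against 10489 genes whose mean log2 CPM reached 1, and is a description, since libraries share groups and depth. Ankrd1 was most like Tgfb2 (Pearson r = 0.77), Rtn4 (0.76) and Kif5b (0.75). With group means removed these were 0.73, 0.77 and 0.76. Ankrd1 and Tgfb2 both lay far above the rest of their group in exercised heterozygote 4, and r was not computed without that library. Tead1 was most like Huwe1 (0.89), Wdr26 (0.88) and Zbtb20 (0.87), and with group means removed r was 0.61, 0.59 and 0.72. Wwtr1 was most like Sptan1 (0.87), Ace (0.81) and Vat1 (0.80), and Yap1 like Arvcf (0.77), Cpe (0.76) and Chrac1 (0.74). Of the low Wnt-side genes, Tcf7l2 reached 0.67 with Klf12 and Tcf7 reached 0.63 with Commd10. Among the tested genes themselves the highest r with group means removed was 0.62, between Yap1 and Ankrd1, both high in exercised heterozygote 4, and over all libraries without that removal it was 0.01. Wwtr1 and Ankrd1 had 0.09, and Tead1 and Ankrd1 0.03.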

How the data were processed

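Paired-end libraries that keep strand were prepared from cardiac myocyte RNA after ribosomal depletion, per the labels' protocols. The submitters' processing notes name mm10, Trim Galore, HISAT2 and featureCounts without versions. The strand setting and annotation release are not given in the sources used here. The authors deposited raw counts per gene for all 30 libraries in 1 table of 52573 entries, 23 of them spike-in controls that were left out.

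Genes were filtered with filterByExpr (15587 kept) and scaled with TMM factors. All comparisons came from 1 edgeR quasi-likelihood fit with robust estimates (edgeR 4.0.16, R 4.3.3) over 30 libraries and 24 residual degrees of freedom, with Benjamini-Hochberg adjustment over all tested genes and a call at an adjusted p under 0.05. Fold changes are log2 values with their standard error, and CPM uses TMM-scaled library sizes. Log2 CPM adds a prior count of 2. P-values measure the spread between these libraries. The model was tested on simulated counts drawn with this fit's own spread, without differences in handling. That does not test values that rest on 1 library or genes of few reads. Positions and exon lengths came from GENCODE M21 on GRCm38. Genes, lists and alternatives were chosen with earlier results of these data known.

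Named genes were the 10 symbols, Dsp, each list's called genes and up to 3 with the smallest p per genotype comparison, of which some are not printed, up to 3 called genes per list for exercise and age, and the 3 most alike in pattern, of which 1 result is not reported here. Ctgf, the paralogs and the lymphocyte markers fall outside that rule and were named after their values were seen. Alternatives were DESeq2 size factors, no low-count filter, a replicate block, fits to the groups compared alone, the DESeq2 Wald test (DESeq2 1.42.0), scaling without mitochondrial genes and the 10 other genes of highest count, and leaving out libraries.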

Additional observations from a re-analysis of the deposited data

Results flagged for a closer look

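In 6 of 59 groups of 5 libraries, 1 library lay far above the rest by Dixon's test, of which chance gives about 1 in 20. Exercised heterozygote 4 had 3823 CPM of Ankrd1 (next 864) and 91.5 CPM of Yap1 (next 70.6). Exercised wild type 1 had 96.7 CPM of Wwtr1 (next 68.2). Heterozygote 3 at 6 months had 20.7 CPM of Lats2 (next 12.1). Wild type 5 at 6 months had 4.84 CPM of Axin2 (next 3.21). The library labelled heterozygote 3 at 3 months had 4.85 CPM of Tcf7 (next 0.729).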

How the results depend on the processing

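The number of these genes called was the same under all alternatives, the replicate block and each fit without 1 library included, with 1 exception: without exercised wild type 1 and heterozygote 4 together, 2 were called for exercise in wild type (Tead1 and Ankrd1) in place of 1. In fits without 1 library these counts ran from 0 to 0 for genotype, age and the interactions, and from 1 to 1 for exercise. Ankrd1 changed sign for genotype after exercise (-0.70 without the same 2 libraries, and -0.50 to 0.45 without 1 library) and for age in wild type (0.023 with no low-count filter, -0.16 to 0.13 without 1 library), and for exercise in heterozygotes it ran from -0.80 to 0.17. Tead1 changed sign for genotype at 3 months (-0.075 to 0.081) and after exercise (-0.060 to 0.12), for the interaction with exercise (-0.034 to 0.15) and for that with age (0.027 without heterozygotes 1 and 2 at 3 months, -0.13 to 0.026 without 1 library), all uncalled values near 0, and Tcf7 for age in heterozygotes (-1.88 to 0.12). The cause was not tested. The 35 correlations of deviations between same-numbered libraries ran from -0.25 to 0.15, and 3 were above 0.1. They were not set beside those of differently numbered libraries, so they do not settle whether replicate numbers pair the libraries. With the replicate block Tead1 with exercise was 0.57 in wild type and 0.66 in heterozygotes, and Ankrd1 for genotype at 6 months was 1.29 (edgeR adjusted p = 0.397). Depth limits Lef1 and Tcf7, at a few reads per library. Over the 121 pathway genes, calls for genotype after exercise ran from 0 to 5 and for age in heterozygotes from 0 to 7 over the alternatives, beside 1 and 1. These list counts, and the values given for Tgfb2, Ctgf, Cyr61, Sfrp2 and Bcl9, were added to the alternatives after the data were seen. Ctgf for genotype at 6 months ran from -0.025 to 0.73 without 1 library.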
